A study of Mus musculus with 6 samples.

Results

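A set of 33 genes of the developing nervous system was followed in tissue cut from either side of the dorsal aorta of the mouse embryo at embryonic day 10.5. The set holds 17 genes of the neural tube, 6 of neural crest and glia and 10 of early neurons, picked by gene symbol, and all 33 were found among the 24675 genes with 1 symbol on the array. Tubulins and genes of catecholamine synthesis were kept out of it. Affymetrix Gene 2.0 ST arrays for mouse were used on 3 ventral samples, from beneath the aorta, and 3 dorsal samples, from the space bounded by the aortic roof and the notochord, all untreated C57BL/6 embryos without a stated transgene. Both regions were cut by laser microdissection from the same stained cryosections of unfixed embryos, which makes each sample a piece of mixed tissue chosen by position. How many embryos went into each sample is unknown here. Each sample entered amplification with 200 to 1000 pg of RNA. The comparison asks which transcripts differ between the 2 sides, and for these genes whether neural RNA was present in either piece and on which side.

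The neural tube lies dorsal to the notochord, outside both cut regions. Its dividing progenitors carry Sox transcription factors, are divided into dorsoventral domains by homeodomain and basic helix-loop-helix factors, and leave the cycle as neurons under proneural factors. Neural crest cells leave the dorsal neural tube and migrate past the somites, and some of them gather beside the dorsal aorta as sympathetic precursors or follow nerves as glial precursors. Several of the genes are also used outside the nervous system, such as Isl1 in splanchnic mesoderm, Ret in the nephric duct, Sox2 in foregut endoderm and Nes in developing muscle and vessels.

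The stretches of 250 bases upstream of the annotated start are shown for Fabp7, the member with the clearest difference between the regions, and for Sox2 and Nes, which were highest on the same ventral array. They are RefSeq sequences of build GRCm38.p6, all on the plus strand, at chr10:57784673-57784922 for Fabp7, chr3:34649745-34649994 for Sox2 and chr3:87970843-87971092 for Nes. Capitals mark matches on either strand to the E-box CANNTG, which proneural factors bind, the SOX core ACAAAG and the RBPJ core TGGGAA.
Fabp7: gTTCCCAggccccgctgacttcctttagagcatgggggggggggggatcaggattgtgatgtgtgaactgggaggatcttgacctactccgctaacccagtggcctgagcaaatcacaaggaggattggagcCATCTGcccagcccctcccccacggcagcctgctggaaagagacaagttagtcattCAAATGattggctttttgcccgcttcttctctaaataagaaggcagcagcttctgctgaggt
Sox2: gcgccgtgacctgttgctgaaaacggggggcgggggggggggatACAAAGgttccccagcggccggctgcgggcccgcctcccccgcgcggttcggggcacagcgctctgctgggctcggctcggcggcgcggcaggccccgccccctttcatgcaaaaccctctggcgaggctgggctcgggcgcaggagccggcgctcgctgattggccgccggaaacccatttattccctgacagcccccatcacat
Nes: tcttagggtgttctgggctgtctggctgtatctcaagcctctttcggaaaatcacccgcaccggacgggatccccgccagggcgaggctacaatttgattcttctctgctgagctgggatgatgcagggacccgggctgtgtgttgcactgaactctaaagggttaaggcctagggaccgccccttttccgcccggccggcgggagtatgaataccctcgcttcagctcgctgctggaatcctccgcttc
The Fabp7 stretch holds 2 E-boxes, CATCTG beginning 118 bases and CAAATG beginning 62 bases before the start, and 1 RBPJ core near its far end. The Sox2 stretch holds 1 SOX core, 206 bases before the start, and the Nes stretch holds none of these letters. Among all 32851 promoter stretches of this length 66.2% hold an E-box, 16.5% the SOX core and 21.6% the RBPJ core. Entries were given for 27 of the 33 genes, with 35 stretches in all, of which 15 hold an E-box, 4 the SOX core and 3 the RBPJ core. These matches describe letters, and binding was not measured.

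All levels are the deposited RMA signals, on a log2 scale. The array medians over all genes lay between 3.20 and 3.27. Over all genes, Pearson correlations between arrays were 0.887 to 0.898 among ventral arrays, 0.813 to 0.828 among dorsal arrays and 0.818 to 0.853 between the regions, so dorsal arrays resembled each other no more than they resembled ventral arrays. In the sclerotome list, 12 of 13 measured genes had lower ventral values (median log2 difference -0.46, against -0.06 over all genes). Ventral values were higher for 7.69% of that list and for 42% of all genes. Twist1, a mesenchymal transcription factor, was at 4.20, 5.71 and 5.46 on the ventral and 6.62, 6.37 and 6.57 on the dorsal arrays. The list of splanchnic and lateral mesoderm did not mark the ventral label, with 5 of 12 genes higher in ventral tissue (41.7%, against 42% of all genes). Its median was -0.035, against -0.06 over all genes. Its smallest unadjusted limma p, 0.0176, was that of Foxf2, a forkhead factor of mesenchyme, with a log2 difference of -0.71.

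On each array most of the 33 genes had a signal between the median and the 95th percentile of genes that served as a guide to dim signals. For this, 1367 olfactory and vomeronasal receptor genes, which are normally silent outside the nose, were taken from the same arrays. Their 95th percentile lay between 4.77 and 4.95 on the ventral and between 4.62 and 4.70 on the dorsal arrays, a spread that also reflects how well single probes bind. Between 2 and 5 of the 33 members exceeded that level on a ventral array and between 0 and 2 on a dorsal array, against 5.64% to 7.07% of all genes on ventral and 7.33% to 8.36% on dorsal arrays. The group mean exceeded the highest of these levels in its group for 2 members, Fabp7 in ventral and Neurog2 in dorsal tissue. With the 90th percentile in place of the 95th there were 5, with Sox3, Chga and Gap43 added, and with the 99th there were 0. The share of all genes that pass by group mean was not counted, so these counts have no background beside them. The median of the receptor genes was exceeded by 31 or 32 of the 33 members on a ventral array and by 30 or 31 on a dorsal array, against 78.1% to 80.5% of all genes on ventral and 78.2% to 79.4% on dorsal arrays. A value near this level does not show whether a transcript was absent or low.

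**Figure D1:**
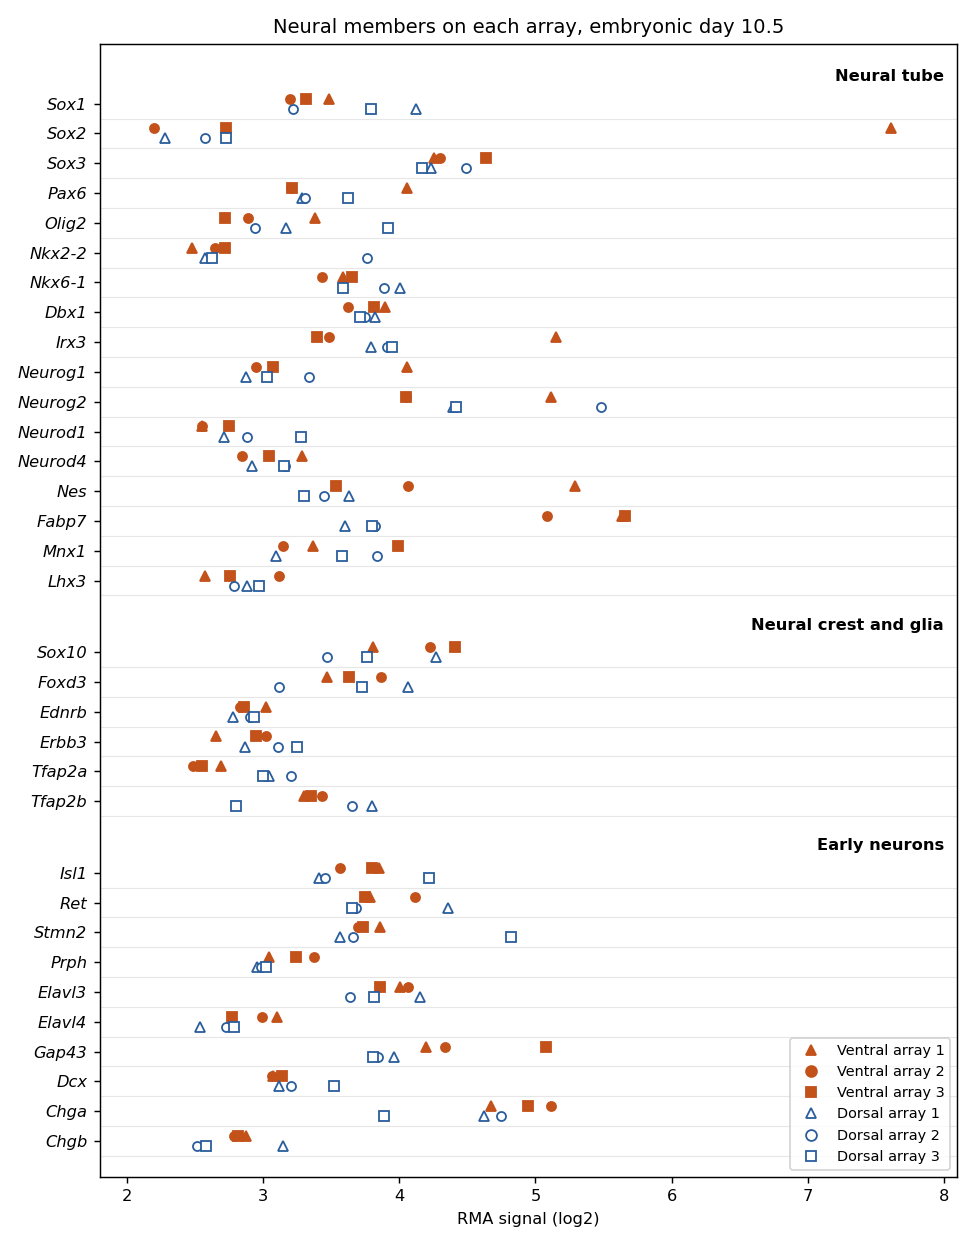
RMA signal on the log2 scale (horizontal axis) of all 33 neural genes on each array, with ventral arrays as filled and dorsal arrays as open symbols and the shape giving the replicate number. Most genes lie between 2.5 and 4.5 with both groups mixed, Fabp7 is separated, and the triangle of ventral array 1 stands far to the right for Sox2, Nes and Irx3.

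No member passed the test between ventral and dorsal tissue. Limma was fitted with the replicate number as a block, with Benjamini-Hochberg adjustment over all 24675 genes and a call at an adjusted p under 0.05. Limma called 0 of the 33 members and 0% of all genes, with adjusted p of the members between 0.239 and 0.998. At an unadjusted p under 0.05 there were 4 members, 3 higher in ventral tissue (Fabp7, Nes and Gap43) and 1 higher in dorsal tissue (Tfap2a). That is 12.1% of the members, where 10.2% of all genes met the same limit (4.32% of all genes ventral higher and 5.9% dorsal higher), so the share was near that of all genes. The values of the groups did not overlap for 4 members, Fabp7, Gap43 and Prph with all ventral arrays higher and Tfap2a with all dorsal arrays higher, 12.1% of the members against 18.7% of all genes. In 10 members all 3 pairs of equal number differed in one direction, 5 each way, which is 30.3% against 35.1% of all genes. By sign alone 18 of 33 members were higher in ventral tissue, against 42% of all genes. In such mixed tissue, fewer cells of a type and less RNA per cell cannot be told apart.

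**Figure D2:**
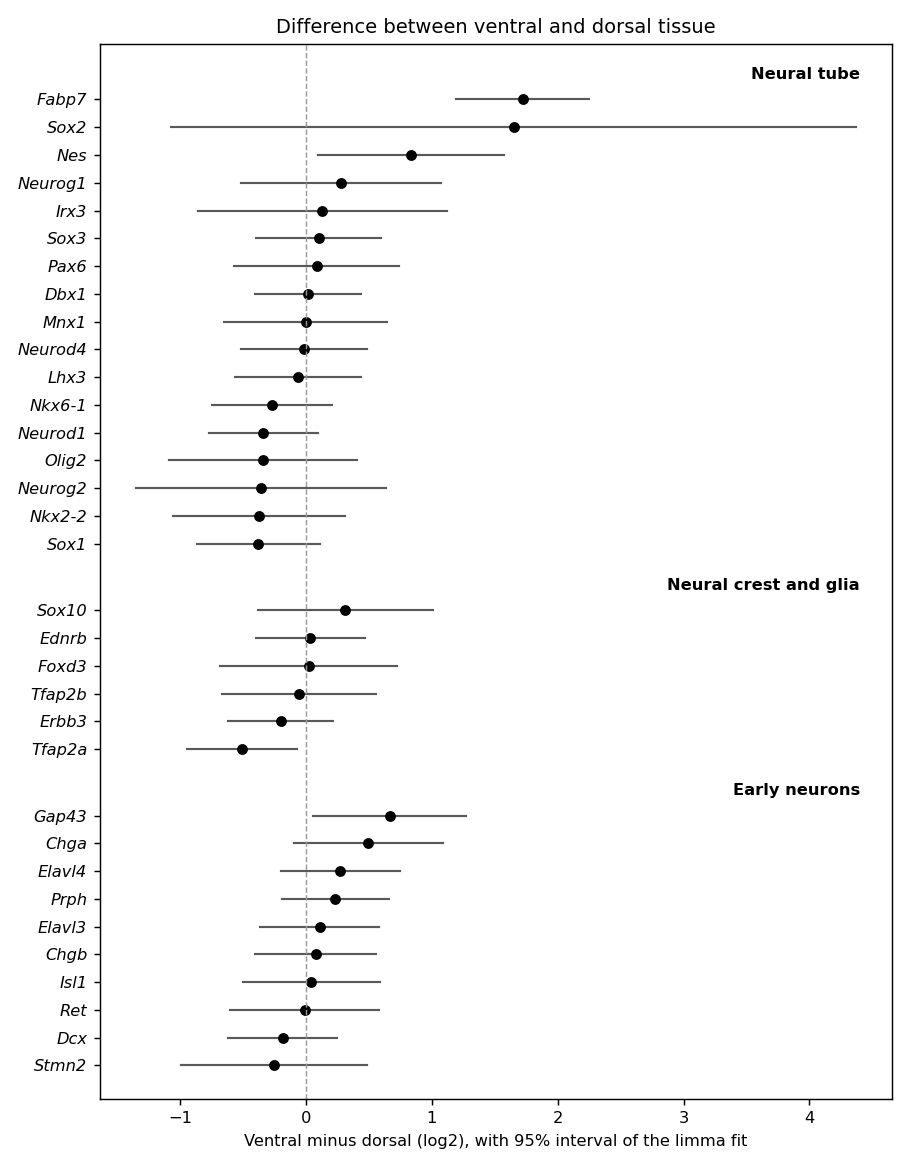
Difference between ventral and dorsal means on the log2 scale (horizontal axis) for each of the 33 genes, ordered by size within each list, with the 95% interval of the limma fit as a bar. The intervals of Fabp7, Nes, Gap43 and Tfap2a exclude 0, while that of Sox2 runs from -1.07 to 4.37.

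Among neural tube genes, Fabp7 had the clearest difference. It encodes brain fatty acid binding protein, known from radial glia and from glial precursors of the crest. Fabp7 measured 5.64, 5.09 and 5.66 on ventral arrays 1, 2 and 3, against 3.60, 3.82 and 3.80 on the dorsal arrays of the same numbers. Every ventral value was more than 1 log2 unit above every dorsal value. Fabp7 was the only neural tube member without overlap, 5.88% of that list against 18.7% of all genes. The means were 5.46 ± 0.32 in ventral and 3.74 ± 0.12 in dorsal tissue (SD, n = 3 each), a 3.30-fold higher ventral signal. The log2 difference was 1.72 ± 0.21 (SE), with a 95% interval from 1.19 to 2.25, an unadjusted p of 0.00025 and an adjusted p of 0.239 in limma. Without the replicate block the adjusted p was 0.0891, and over all 16 alternatives it ranged from 0.0891 to 0.541. Leaving out arrays gave differences from 1.56 to 1.95, always higher in ventral tissue.

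Sox10, Erbb3, S100b, Cdh19 and Ngfr, genes of crest and glia, had overlapping groups, and their relation to the Fabp7 signal was not tested. Sox10, the transcription factor of crest and glia, differed by 0.31 (95% interval -0.38 to 1.01). Erbb3, the neuregulin receptor of Schwann cell precursors, differed by -0.20 (-0.62 to 0.22). Leaving out arrays gave differences from 0.093 to 0.70 for Sox10 and from -0.30 to -0.092 for Erbb3. S100b, a calcium-binding protein of glia, differed by -0.10 and Cdh19, a cadherin of glial precursors, by -0.13. Ngfr, the low-affinity neurotrophin receptor of crest, differed by 0.02. The values of S100b, Cdh19 and Ngfr stayed at or below 3.01 on all 6 arrays, below the array medians of 3.20 to 3.27. The SoxB1 genes of progenitors also gave no common direction, with -0.38 for Sox1, 1.65 for Sox2 and 0.10 for Sox3.

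Sox2, Nes and Irx3 were high on 1 ventral array, the one numbered 1. This was noticed in the values and is given as a description, with no test. Sox2, the factor that keeps neural progenitors undifferentiated, measured 7.61, 2.20 and 2.72 on ventral arrays 1, 2 and 3, against 2.28, 2.57 and 2.73 on the dorsal arrays. The first value exceeded the next highest by 4.88 log2 units, and the other 5 arrays showed no separation of the regions. The fitted difference of 1.65 ± 1.10 (SE) therefore came from a single array, and without it the difference was -0.07 in limma without the block.

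Nes encodes nestin, an intermediate filament of progenitors. It measured 5.29, 4.06 and 3.54 on the ventral and 3.63, 3.44 and 3.30 on the dorsal arrays. The lowest ventral value lay below the highest dorsal value, so the groups overlapped, although each ventral array was above the dorsal array of its number. The log2 difference was 0.84 ± 0.30 (SE), with an unadjusted p of 0.0327 and an adjusted p of 0.466 in limma. The unadjusted p was 0.0768 without the block, and without ventral array 1 the difference was 0.34 with an unadjusted p of 0.189, also in limma without the block. Irx3, an Iroquois homeodomain factor of the neural tube, measured 5.15, 3.48 and 3.40 on the ventral and 3.79, 3.91 and 3.94 on the dorsal arrays. Ventral arrays 2 and 3 were thus below all dorsal arrays and ventral array 1 was above them, and without ventral array 1 the log2 difference turned to -0.44.

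The same array was the highest of the 6 for other neural tube members, by smaller margins. Neurog1, a proneural factor, measured 4.06, 2.94 and 3.07 on the ventral and 2.87, 3.34 and 3.03 on the dorsal arrays. Pax6, a factor of progenitor domains, measured 4.06 on ventral array 1 and between 3.20 and 3.63 on the other 5. With Dbx1 and Neurod4, 7 of the 17 neural tube members were highest on ventral array 1, where 11.5% of all genes were, and for Sox2, Nes and Irx3 the margin exceeded 1 log2 unit, as it did on that array for 0.612% of all genes. With arrays rescaled by cyclic loess or centred on their medians there were 8 and again 3. The mean over the 17 members was 4.10 on ventral array 1 and 3.34 and 3.47 on ventral arrays 2 and 3, against 3.38, 3.56 and 3.51 on the dorsal arrays.

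**Figure D3:**
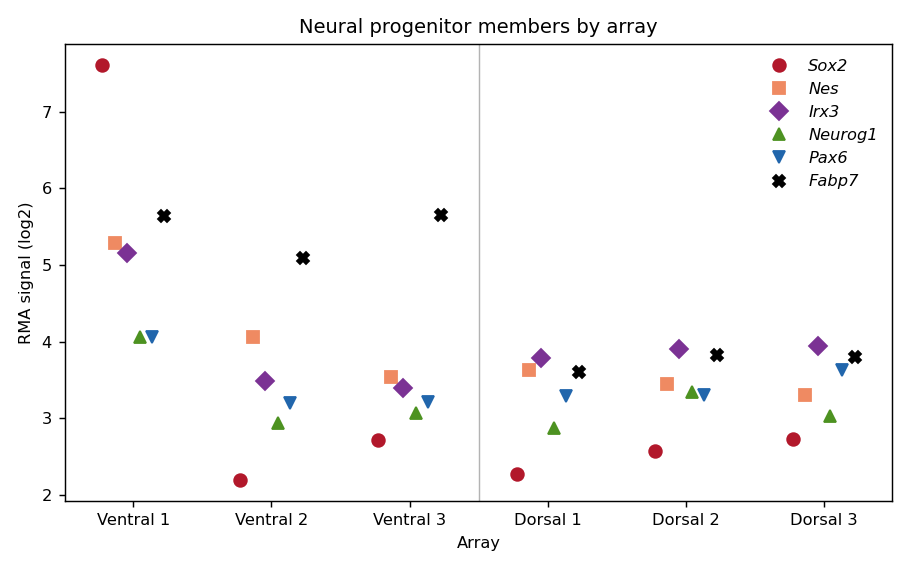
RMA signal on the log2 scale (vertical axis) of 6 neural tube members on the 3 ventral and 3 dorsal arrays, 1 symbol per gene and array. Sox2, Nes, Irx3, Neurog1 and Pax6 are highest on ventral array 1, whereas Fabp7 lies above 5 on all 3 ventral and below 4 on all 3 dorsal arrays.

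Other genes of neural tube and other tissues on that array are given beside this pattern. Of 39 measured neural tube genes outside the set, 7 were highest on ventral array 1 (17.9%, against 11.5% of all genes). These were Dbx2, Dll3, Evx1, Hes3, Neurod6, Nhlh1 and Pax3, and 0 of them were highest by more than 1 log2 unit. Their margins ran from 0.004 for Hes3 to 0.48 for Dbx2, which measured 4.39 on that array. Vim and Hes5 were not among them. Vim, the vimentin filament gene of progenitors and mesenchyme, was at 6.36 on ventral array 1 and 5.97 and 5.99 on the other ventral arrays, against 6.37, 6.41 and 5.49 on the dorsal arrays. Hes5, a Notch target of progenitors, was at 3.41 on ventral array 1, the lowest of the ventral values. The 10 erythroid genes had a summed linear signal of 599 on ventral array 1, below 3129 and 10280 on the other ventral arrays and 1841 to 7189 on the dorsal arrays. The globin genes Hba-x, Hbb-bh1, Hbb-y and Hbb-bt had the highest signals of this list and weighed most in the sum. Each of them was lowest on ventral array 1. Hbb-bs, Slc4a1, Klf1, Epor, Slc25a37 and Alas2 were not lowest on that array, and Alas2 was highest there, at 3.81. The 13 sclerotome genes summed to 170 on that array, against 217 and 205 on the other ventral arrays and 293 to 318 on the dorsal arrays. The 12 genes of splanchnic and lateral mesoderm summed to 188, 225 and 206 on the ventral and 202 to 236 on the dorsal arrays. The part of these tissues in the pattern was not tested.

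The remaining factors of progenitor domains showed no separation. Olig2, the factor of motor neuron progenitors, measured 3.38, 2.89 and 2.72 on the ventral and 3.16, 2.94 and 3.91 on the dorsal arrays. Nkx2-2, which marks the ventral-most progenitors beside the floor plate, was high on dorsal array 2 alone, with 2.48 to 2.72 on the ventral arrays, 3.76 on that dorsal array and 2.57 and 2.62 on the other dorsal arrays. It was the fourth member with 1 array more than 1 log2 unit above the rest, a feature of 3.23% of all genes. Nkx6-1, a repressor of the ventral neural tube, differed by -0.27 and Dbx1, a factor of interneuron progenitors, by 0.02. Sox1 was lower on the ventral array in all 3 pairs, at 3.49, 3.20 and 3.31 against 4.13, 3.22 and 3.79, with a log2 difference of -0.38 and an unadjusted limma p of 0.104.

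Proneural factors and their targets did not separate the regions. Neurog2, which drives progenitors out of the cycle, measured 5.12, 4.05 and 4.05 on the ventral and 4.39, 5.48 and 4.41 on the dorsal arrays, with ventral array 1 and dorsal array 2 apart from the others. The log2 difference was -0.36 ± 0.40 (SE), it was -0.90 without both arrays numbered 1 and 0.18 without both arrays numbered 2. Neurod1, a differentiation factor downstream of the neurogenins, was lower on the ventral array in all 3 pairs, between 2.55 and 2.75 against 2.71 to 3.27, a difference of -0.34 with an unadjusted limma p of 0.104. Neurod4, a related factor, differed by -0.02, and the motor neuron factors Mnx1 and Lhx3 by -0.003 and -0.06. Mnx1 and Neurod4 were higher in ventral tissue after cyclic loess, median centring or array weighting, and neither differed beyond its spread. The median difference over the 17 neural tube members was -0.003, against -0.06 over all genes.

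Of the 6 genes of neural crest and glia, Tfap2a had groups without overlap, 16.7% of the list against 18.7% of all genes, so the share was near that of all genes. Tfap2a encodes the transcription factor AP-2 alpha, an early crest specifier that is also used in surface ectoderm. It measured 2.69, 2.48 and 2.55 on the ventral and 3.04, 3.20 and 3.00 on the dorsal arrays. All ventral values lay below all dorsal values, and every value lay below the array median. The log2 difference was -0.51 ± 0.18 (SE), with an unadjusted p of 0.03 and an adjusted p of 0.465 in limma. Leaving out arrays gave differences between -0.58 and -0.40. Its paralogue Tfap2b, which acts in crest and sympathetic precursors, differed by -0.06, with 3.30 to 3.43 on the ventral arrays inside the dorsal range of 2.80 to 3.80.

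The other crest factors had overlapping groups. Sox10 measured 3.80, 4.22 and 4.41 on the ventral and 4.27, 3.47 and 3.76 on the dorsal arrays. Foxd3, which maintains crest progenitors, measured 3.47, 3.87 and 3.63 on the ventral and 4.06, 3.12 and 3.73 on the dorsal arrays. Dorsal array 1 was the highest and dorsal array 2 the lowest dorsal array for both genes, and the ventral values lay between or overlapped them. Ednrb, the endothelin receptor of migrating crest, stayed between 2.78 and 3.02 on all 6 arrays. Over the 6 members 3 differences were positive and 3 negative, with a median of -0.02. Of 25 measured crest and glia genes outside the set, 4 had higher and 21 lower ventral values, with a median of -0.10, where 42% of all genes were higher in ventral tissue. An unadjusted limma p under 0.05 was met by 0 of the 25, against 10.2% of all genes, and the smallest was 0.0668 for Ets1, a transcription factor of crest and endothelium, with a log2 difference of -0.63. Groups without overlap were found for 1 of the 25 (4%, against 18.7% of all genes), the semaphorin receptor gene Nrp2. Snai2, a driver of crest delamination that also acts in mesenchyme, was between 3.14 and 3.88 on the ventral arrays, at 6.36 on dorsal array 1 and at 3.22 and 3.33 on the other dorsal arrays.

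Among early neuron genes, Gap43 and Prph had groups without overlap, 20% of the list against 18.7% of all genes, so the share was near that of all genes. Gap43 had the largest difference of the 10. Gap43 encodes a growth cone protein of extending axons. It measured 4.20, 4.33 and 5.07 on the ventral and 3.96, 3.84 and 3.81 on the dorsal arrays. The groups did not overlap, although ventral array 1 and dorsal array 1 were only 0.24 apart. The means were 4.53 ± 0.47 in ventral and 3.87 ± 0.08 in dorsal tissue (SD, n = 3 each), a 1.59-fold higher ventral signal. The log2 difference was 0.67 ± 0.25 (SE), with an unadjusted p of 0.0365 and an adjusted p of 0.471 in limma. Without both arrays numbered 3 the difference was 0.37, with an unadjusted limma p of 0.174.

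Granins, filaments and RNA-binding proteins of neurons differed less. Chga, chromogranin A of dense-core vesicles in endocrine cells and neurons, measured 4.68, 5.11 and 4.95 on the ventral and 4.62, 4.74 and 3.89 on the dorsal arrays. Each ventral array was above the dorsal array of its number, but ventral array 1 was below dorsal array 2. Its difference was 0.50 ± 0.24 (SE) with an unadjusted limma p of 0.0865, and it was 0.21 without both arrays numbered 3. Prph, peripherin, the intermediate filament of peripheral neurons, measured 3.04, 3.37 and 3.24 on the ventral and 2.95, 2.99 and 3.02 on the dorsal arrays. The groups did not overlap but the nearest values were 0.02 apart, and the unadjusted limma p was 0.228. Chgb, the related granin, differed by 0.08, and the Hu proteins Elavl3 and Elavl4, which bind neuronal messenger RNAs, by 0.11 and 0.27.

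Genes of differentiating and migrating neurons gave no separation. Stmn2, a microtubule regulator of growth cones, was high on dorsal array 3 alone, with 3.70 to 3.86 on the ventral arrays, 4.82 on that dorsal array and 3.56 and 3.66 on the other dorsal arrays. Isl1, a LIM homeodomain factor of motor and sensory neurons, was also highest on that array, at 4.22, and differed by 0.04 between the regions. Dcx, doublecortin of migrating neurons, was likewise highest there, at 3.52, was lower on the ventral array in all 3 pairs and differed by -0.19. Ret, the receptor for GDNF family ligands, was highest on dorsal array 1, at 4.35, and differed by -0.01, a sign that turned after median centring. Over the 10 members 7 differences were positive, where 42% of all genes were, with a median of 0.09 against -0.06 over all genes. The median was -0.022 without dorsal array 2, in limma without the block, and the positive differences of Isl1, Elavl3 and Chgb turned negative when some arrays were left out. The mean of the 10 members was 3.65, 3.71 and 3.71 on the ventral and 3.58, 3.45 and 3.61 on the dorsal arrays, without overlap, whereas the medians, 3.82, 3.63 and 3.74 against 3.49, 3.55 and 3.73, overlapped.

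Neuron genes outside the set ran in both directions. Of 41 measured genes 19 had positive and 22 negative differences, with a median of -0.03. An unadjusted limma p under 0.05 was met by 4 of them, all lower in ventral tissue, which at 9.76% is near the 10.2% of all genes. They were Onecut2, a transcription factor of motor neurons (log2 difference -0.83), Nefm, the medium neurofilament chain (-0.77), L1cam, an adhesion molecule of axons (-0.59), and Scg5, a secretory granule chaperone (-0.51), with adjusted limma p between 0.449 and 0.482. Nefm measured 2.68, 2.72 and 2.79 on the ventral and 3.97, 3.58 and 2.97 on the dorsal arrays. All ventral values were below all dorsal values, the reverse of Gap43 and of Prph, another neuronal filament gene. Groups without overlap were found for 13 of these 41 genes, 4 higher in all ventral arrays (9.76%, against 6.74% of all genes) and 9 higher in all dorsal arrays (22% against 12%). Of the 39 neural tube genes outside the set Gsx2, a homeobox factor of dorsal progenitors, was the only one at an unadjusted limma p under 0.05 (2.56% of them, against 10.2% of all genes), with 3.09, 3.74 and 3.52 on the ventral and 3.98, 3.99 and 4.55 on the dorsal arrays. Of sympathetic and catecholamine genes, a cell type that gathers by the aorta, 10 were measured. They summed to a linear signal of 135 to 153 on the ventral and 136 to 145 on the dorsal arrays. Their differences were positive for 4 and negative for 6, 40% positive against 42% of all genes. Among them Ddc, the aromatic amino acid decarboxylase, differed by 0.67 with an unadjusted limma p of 0.041. It was the only one under 0.05, 10% of the list against 10.2% of all genes. Ddc and Slc6a2, which differed by 0.25, had all ventral arrays above all dorsal arrays. That is 20% of the list, against 18.7% of all genes without overlap in either direction and 6.74% with ventral higher. Th, tyrosine hydroxylase, differed by 0.05.

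**Figure D4:**
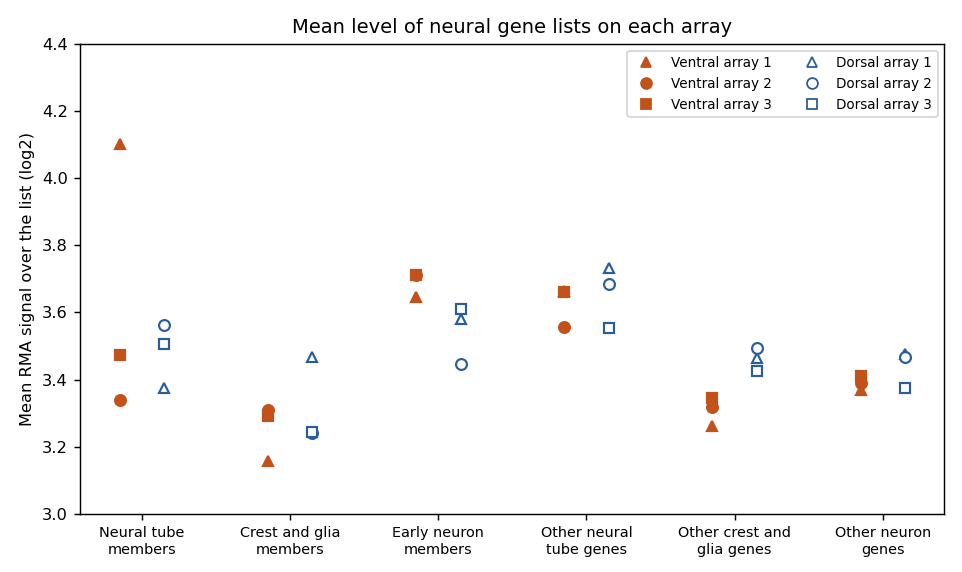
Mean RMA signal on the log2 scale (vertical axis, shown from 3.0 to 4.4) of the 3 sets of members and of other genes of the same programmes on each array, ventral filled and dorsal open, with the shape giving the replicate number. Ventral array 1 stands at 4.10 for the neural tube members only. The mean of the early neuron members is slightly higher on the ventral arrays, with nearest values of 3.65 (ventral array 1) and 3.61 (dorsal array 3). Their medians overlap between the regions.

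Within groups, the median SD of a member was 0.20 over the ventral and 0.23 over the dorsal arrays, against 0.18 and 0.26 over all genes. It was 0.32 and 0.21 for the neural tube members, in which ventral array 1 stood apart, 0.15 and 0.30 for crest and glia, and 0.16 and 0.30 for early neurons.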

How the data were processed

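RNA from 3 ventral and 3 dorsal samples was hybridised to 6 arrays. The deposited values are log2 signals, 1 per probe set and array, made with Affymetrix Expression Console and RMA per the submitters' processing notes, which give no versions. The log base was taken from the values. Of 25429 probe sets, 24675 had 1 gene symbol and 754 none, and each gene had 1 probe set. No source used here names their genome build.

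All 24675 genes were fitted in limma 3.58.1 (R 4.3.3), lmFit and eBayes, ventral minus dorsal, two-sided, Benjamini-Hochberg adjusted, with no filter on dim genes. The replicate number was a block because the labels say both regions came from the same embryos. They do not say that equal numbers mean the same embryo, and same-numbered arrays deviated together weakly (correlations 0.039, -0.014 and 0.058). With 3 against 3 arrays a two-sided exact permutation test that ignores the replicate number cannot go below 0.1. Permuting within pairs of equal number allows fewer arrangements and has a higher limit. The number of arrays limits the precision. The limma p-values set each difference against the residual spread among these samples only, with variances moderated over all genes by eBayes. The procedure was also run on simulated data with independent normal noise and no replicate effect. Summed over repeated simulated data sets of 24675 genes each, the fit with the block made 14235 calls, of which 809 were false. It found 70.2% of 2-fold and 98.5% of 4-fold changes. Because the simulated noise was simpler than that of real arrays, these shares do not show how the fit performed on these samples.

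The members and lists were chosen with earlier results of these data known. All members are named. Array values are given for members at an unadjusted p under 0.05, without overlap of groups, or with a group mean above the receptor-gene level, and for others chosen after their values were seen. Of the other lists, up to 3 genes a direction among those of smallest p are named for some lists, and the other genes named from them were chosen after their values were seen. Some listed genes had no matching symbol and were not analysed here. Alternatives were the fit without the block, cyclic loess, median centring, 2 filters on dim genes, a trended robust eBayes, array weights, and leaving out arrays singly or by number.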

Additional observations from a re-analysis of the deposited data

How the results depend on the processing

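No member passed an adjusted limma p of 0.05 under any of the 16 alternatives. The limma count over all genes, 0 with the block (2522 at an unadjusted p under 0.05), was 1 in the fit with no replicate block (2765) and 0 to 5 when arrays were left out. The block thus called 1 gene fewer and kept every member on the same side of the threshold. Of all genes at an unadjusted p under 0.05, 42.2% were higher in ventral tissue, against 52.4% after cyclic loess and 53.5% after median centring, while the median over all genes moved to -0.0048 and -0.016. The number of members at an unadjusted p under 0.05, an alternative added after seeing the data, was 4, and 1 to 5 when arrays were left out. It was 5 without both arrays numbered 1, where Neurog2, Sox10 and Chga met the limit and Nes and Tfap2a did not. It was 1 without both arrays numbered 2, 2 without both numbered 3 and 2 without dorsal array 3. Of all 24675 genes, 2127 met the same limit without both arrays numbered 1 and 1974 without both numbered 2. There were 1859 without both numbered 3 and 2806 without dorsal array 3. Fabp7 was at an unadjusted p under 0.05 in all 16 alternatives.

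Of 515 member values under an alternative 450 kept their sign and 65 did not. With all arrays kept, Neurod4 became 0.031 after cyclic loess, 0.026 after median centring and 0.0011 with array weights, Mnx1 0.023, 0.041 and 0.021, Foxd3 -0.015 with array weights and Ret 0.032 after median centring. When arrays were left out, 20 members took the opposite sign at least once, with log2 differences over Sox2 -0.19 to 2.67, Sox3 -0.084 to 0.25, Pax6 -0.26 to 0.33, Olig2 -0.62 to 0.081, Nkx2-2 -0.61 to 0.014, Dbx1 -0.041 to 0.094, Irx3 -0.49 to 0.47, Neurog1 -0.18 to 0.61, Neurog2 -0.90 to 0.18, Neurod4 -0.21 to 0.13, Mnx1 -0.25 to 0.34, Lhx3 -0.26 to 0.060, Foxd3 -0.34 to 0.33, Ednrb -0.071 to 0.087, Tfap2b -0.36 to 0.17, Isl1 -0.15 to 0.30, Ret -0.24 to 0.27, Stmn2 -0.53 to 0.16, Elavl3 -0.052 to 0.25, Chgb -0.037 to 0.28. The median of early neuron members ranged from -0.022 to 0.24 when arrays were left out, that of neural tube members from -0.20 to 0.18 and that of crest and glia members from -0.12 to 0.062. The cause of these changes was not tested. Members near the receptor-gene level may have signal too weak over background to show a difference.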
